A study of Rattus norvegicus with 31 samples.

Results

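The comparison described here is the main effect of training task on CA3 gene expression in aged rats, over all 31 arrays of the series: 16 from rats given spatial training (S) and 15 from rats given non-spatial training (NS), chosen by the start of each sample title. Within each task the rats were aged unimpaired (AU) or aged impaired (AI), and phenotype was a term in the fit of all 31 arrays. S minus NS is therefore a weighted average over both phenotypes, whose own differences may be unlike. The groups were AU-S (8 rats), AU-NS (8), AI-S (8) and AI-NS (7). All rats were aged male Long-Evans rats, an outbred strain, of which AU rats had located a hidden platform as well as young adults in an earlier water maze test and AI rats had not. Weeks later every rat swam to a visible platform in a new maze. S rats had prominent cues around the pool and a platform that stayed in place. NS rats had those cues taken away and a platform that moved between trials. Each rat then swam a probe trial without the platform and was killed directly after it, so both groups had swum and neither was left in its home cage. CA3 was dissected by hand, the hemispheres of a rat were pooled, and each rat had its own array. One further AI-NS array had been set aside by the authors as an outlier and was not analysed here.

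CA3 is the hippocampal field whose pyramidal cells excite one another through recurrent connections and receive the mossy fibres of dentate granule cells. It is known for rapid storage of new associations and for recall from partial cues. The water maze with fixed cues asks a rat to use the layout of the room, whereas a moving visible platform can be approached as a beacon. In neurons, transcription of immediate early genes such as Arc and Fos follows activity within minutes, and genes for ribosomes, respiratory chain complexes and proteasomes are expressed continuously in all cells. The question of the comparison was whether CA3 expression separated rats by the information available during training.

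No gene separated the tasks beyond the spread between rats once all genes were considered. Of 16204 probesets, 0 (0%) passed an adjusted p of 0.05 in the limma fit, and the smallest adjusted p was 0.308. At an unadjusted p under 0.05 there were 1974 probesets (12.2%), of which 928 (5.73%) were higher and 1046 (6.46%) were lower in S rats. With each array centred on its own median there were 2041, split into 1240 higher and 801 lower, so that the balance of directions depended on scaling. The median difference over all probesets was -0.01 on the log2 scale. SAM, the permutation method named in the study's methods, called 3 probesets (0.0185%) with the median false count and 0 with the mean false count. The only named gene among those 3 was Tent4a. The task difference did not pass the test for a change between AU and AI rats at any probeset either: the interaction gave 0 calls (0%) at an adjusted p of 0.05 and 396 probesets (2.44%) at an unadjusted p of 0.05.

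The arrays were precise enough to bound most differences. The 95% interval of S minus NS lay inside a 1.2-fold change in either direction for 12033 probesets (74.3%), and an interval extended to a median of 0.127 on the log2 scale on either side of the difference. Differences larger than 0.5 in size were measured at 40 probesets, and larger than 1 at 2 probesets. Whole profiles did not differ beyond the spread between rats. The mean distance (1 minus Pearson's r) was 0.01369 between an S and an NS array of the same phenotype and 0.01344 between arrays of the same task and phenotype (one-sided permutation p = 0.188, task labels shuffled within phenotype). Signs of RNA quality did not separate the tasks past the threshold: the 3′ minus 5′ log2 signal of the array's control probesets for beta-actin and Gapdh averaged 1.54 ± 0.11 (SD, n = 16) in S rats and 1.5 ± 0.15 (SD, n = 15) in NS rats, with a difference of 0.03 after adjustment for phenotype (permutation p = 0.423).

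The tissue carried markers of CA3 and of its neighbours. CA3 pyramidal markers (5 of 6 listed genes measured) averaged 10.10 in S rats and 10.15 in NS rats. Markers of dentate granule cells and of CA1 pyramidal cells averaged 9.52 or more in every group. Dentate markers (4 of 8 measured) averaged 9.64 ± 0.33 in AU-S and 9.75 ± 0.12 in AU-NS rats (SD, n = 8 each), against 9.995 ± 0.385 in AI-S (SD, n = 8) and 9.52 ± 0.38 in AI-NS rats (SD, n = 7), so that S minus NS was -0.12 in AU rats and 0.47 in AI rats. Pdyn and Prox1 belong to that marker list and so are part of its mean. Pdyn, the prodynorphin gene of mossy fibres, differed by -0.01 in AU rats and 0.76 in AI rats, and Prox1, a transcription factor of granule cells, by -0.24 in AU rats and 0.60 in AI rats, with no interaction past the adjusted threshold (unadjusted p = 0.0875 for Pdyn and 0.0135 for Prox1). In bulk tissue, fewer cells of a type and less RNA per cell cannot be told apart. CA1 markers (6 genes) averaged 9.91 in AU-S, 9.78 in AU-NS, 9.93 in AI-S and 9.97 in AI-NS rats. The part of dentate or CA1 tissue in the task differences was not tested, but the 4 families, the genes ordered by span, glycolysis and microglia are also given with both marker levels as covariates.

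**Figure D1:**
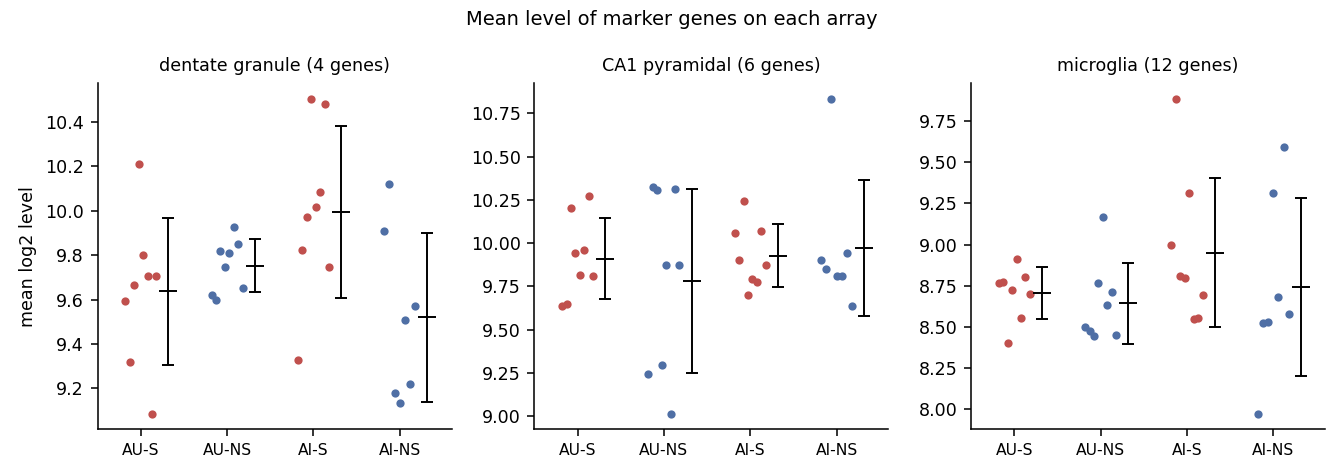
Mean log2 level of dentate granule, CA1 pyramidal and microglia marker genes on each array (points), with the group mean and SD (bars) beside them. Dentate markers averaged higher in AI-S than in AI-NS rats (9.995 against 9.52), with overlap in both phenotypes, and 1 AI-NS array reached 10.84 for CA1 markers.

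The 10 genes higher in S rats with the smallest p-values each had an adjusted p of 0.308, so none was called. Emc4, a subunit of the endoplasmic reticulum membrane complex that inserts membrane proteins, had a lowest, median and highest value of 11.03, 11.34 and 11.58 in S rats, against 10.71, 11.13 and 11.44 in NS rats. Its ranges overlapped, but 15 of 16 S rats were above the NS median, and the difference was 0.22 (SE 0.05). Pfdn6, a subunit of the prefoldin chaperone that hands new actin and tubulin to the folding machinery, had 10.35, 10.78 and 11.02 in S rats, against 10.05, 10.58 and 10.80 in NS rats. Again 15 of 16 S rats were above the NS median, with a difference of 0.27 (SE 0.07). Ggct, an enzyme of glutathione turnover, had 7.00, 7.36 and 7.98 in S rats, against 6.72, 7.11 and 7.24 in NS rats, a difference of 0.29. Ppp2r5d, a regulatory subunit of protein phosphatase 2A, had 7.76, 7.95 and 8.16 in S rats, against 7.32, 7.74 and 7.95 in NS rats. All 16 S rats were above the NS median, although the top NS rats reached the middle of the S range. The difference of Ppp2r5d was 0.23 at that probeset and 0.14 at the brighter of its 2 probesets.

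The other 6 of the 10 genes named as higher had differences between 0.16 and 0.26. They were Eif5b, an initiation factor that joins the ribosomal subunits (0.23), Srp72 of the signal recognition particle (0.16), Anapc16 of the anaphase-promoting complex (0.24), the muscle and brain kinase Dmpk (0.26), the calcium channel subunit Cacnb1 (0.19) and Wbp4, a splicing protein (0.24). For Eif5b and Wbp4 the difference was read at a dimmer probeset, and the brightest probeset of each gave -0.02. All 20 named genes, 10 higher and 10 lower, had the same sign in AU and AI rats. They were chosen by p in the fit of both phenotypes, which favours like signs, so that match is not separate support. In all 20 the S and NS ranges overlapped. Of the 20, 12 were read at the brightest probeset of the gene.

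The 10 genes lower in S rats with the smallest p-values also had an adjusted p of 0.308 each. Tent4a, a noncanonical poly(A) polymerase that extends messenger RNA tails, had 9.80, 9.99 and 10.07 in S rats, against 10.003, 10.11 and 10.30 in NS rats. None of the S rats was above the NS median, and the groups overlapped only between 10.003 and 10.07. Its difference was -0.15 (SE 0.03, unadjusted p = 8.86e-05), with -0.17 in AU and -0.14 in AI rats, and its other probeset gave 0.06. Acsl1, a long-chain acyl-CoA synthetase, had 7.95, 8.26 and 8.41 in S rats, against 8.23, 8.46 and 8.69 in NS rats. Here too 0 of 16 S rats were above the NS median, with a difference of -0.20 there and -0.14 at its brighter probeset. Klf3, a transcriptional repressor of the Krüppel-like family, had 9.15, 9.38 and 9.601 in S rats, against 9.401, 9.53 and 9.74 in NS rats, a difference of -0.20 that shrank to -0.03 at its brightest probeset.

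The remaining genes named as lower had differences between -0.32 and -0.15. Pde4d, a phosphodiesterase that breaks down cyclic AMP, had the lowest of them at -0.32, read at a dim probeset, and -0.06 at its brightest. Mbd6, of the methyl-CpG-binding domain family, differed by -0.28, the SUMO-interacting protein gene Simc1 by -0.22, Dnaaf9 by -0.17 and Cacul1 by -0.15. A pair of signalling genes were measured by several probesets that all had negative differences: Appl1, an endosomal adaptor, at 5 probesets (-0.19 at the named one and -0.05 at the brightest), and Arpp19, an inhibitor of protein phosphatase 2A, at 3 probesets (-0.18).

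**Figure D2:**
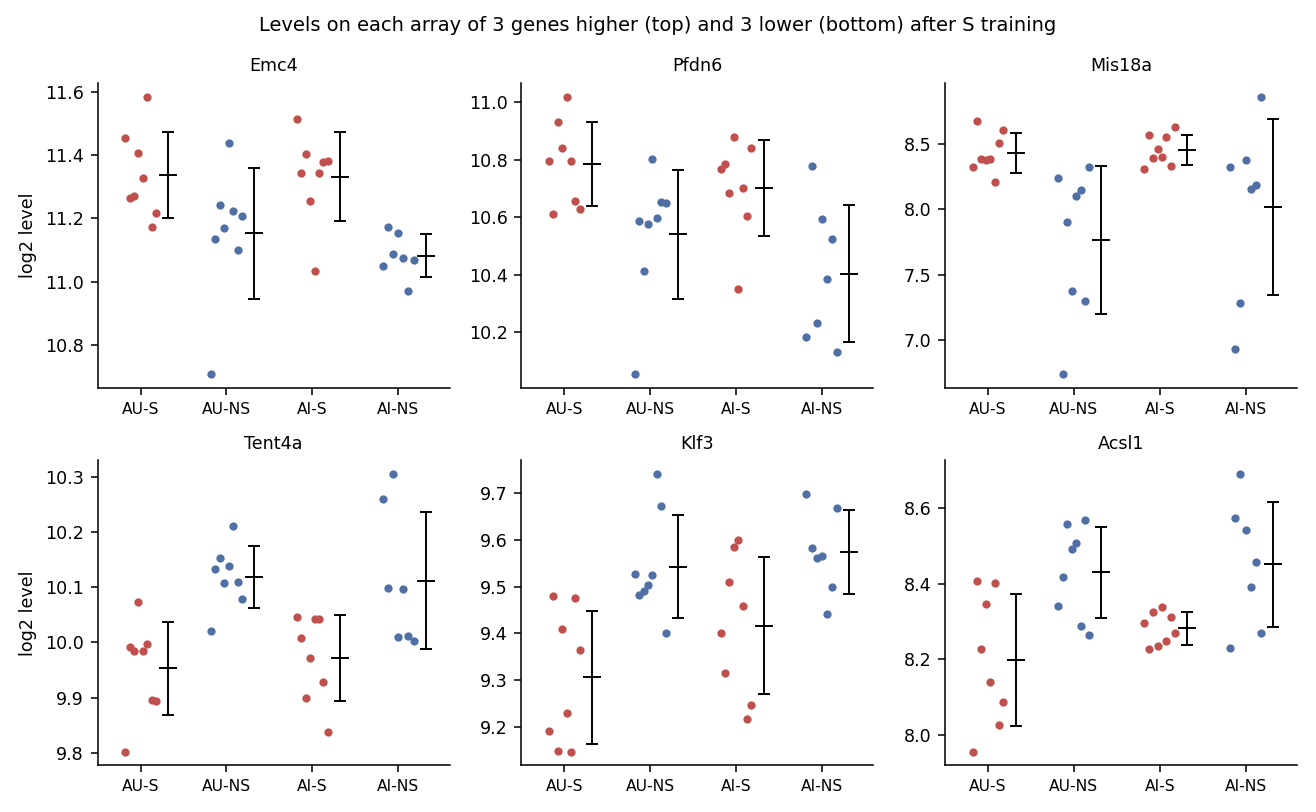
log2 level on each array (points) of 3 genes higher in S rats (Emc4, Pfdn6 and Mis18a, top) and 3 lower (Tent4a, Klf3 and Acsl1, bottom), in the order AU-S, AU-NS, AI-S and AI-NS, with group means and SDs. The differences are 0.22, 0.27 and 0.56 for the upper genes and -0.15, -0.20 and -0.20 for the lower genes, the points of S and NS rats overlap in each gene, and the NS points of Mis18a spread down to 6.74.

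Among probesets with 1 gene symbol and an unadjusted p under 0.05, the 5 largest differences in each direction were measured with wide errors. Mis18a, which loads the centromere histone onto chromosomes, had 8.21, 8.39 and 8.67 in S rats, against 6.74, 8.14 and 8.86 in NS rats. All 16 S rats were above the NS median, and the NS rats were spread far more widely (SD 0.61) than the S rats (SD 0.13), so that the difference of 0.56 (SE 0.15, unadjusted p = 0.000764, adjusted p = 0.308) rested on a low tail of NS rats. Pcdh19, a protocadherin of neuronal contacts, had 8.86, 9.50 and 9.90 in S rats, against 7.68, 9.0002 and 9.76 in NS rats, a difference of 0.55 (SE 0.19). Zbtb20, a transcription factor that specifies hippocampal pyramidal identity, differed by 0.68 (SE 0.33) at 1 of 6 probesets and by 0.01 at the brightest. Cebpa and Tiam1 had 0.56 each at a dim probeset, and 0.03 and 0.19 at their brightest.

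In the negative direction, Folh1, which releases glutamate from the dipeptide NAAG, differed by -0.78 at a dim probeset and by -0.27 at its brightest. Ro60, an RNA-binding protein, had -0.53, and Rbm15 had -0.58 at a dim probeset against -0.03 at its brightest. A pair of genes had unlike differences in the 2 phenotypes. Adcy9, an adenylyl cyclase, had -0.90 in AU rats and -0.06 in AI rats, and Vof16 had -0.08 in AU and -1.40 in AI rats. For Vof16, AU-S replicate 7 stood at 7.082, where the other AU-S arrays had 4.482 to 5.38, and the difference over both phenotypes was -0.87 without it. The interaction gave unadjusted p-values of 0.0502 for Adcy9 and 0.0514 for Vof16, and neither passed.

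Families of genes showed small differences that ran one way, most plainly in the cytosolic ribosome. Its proteins decode messenger RNA and join amino acids, and 39 of the 79 listed genes were measured. All 39 had a positive S minus NS difference, with a median of 0.11 (1.08-fold) and a range of 0.01 to 0.22. At an unadjusted p under 0.05, 16 of 39 (41.0%) were higher and 0 lower. Of all 9037 genes at their brightest probeset, 7.24% were higher, 5.84% lower and 51.6% had a positive difference. With each array centred on its median 26 members were higher, and the count higher over all probesets rose from 928 to 1240. No member was called after adjustment, and the median over all genes was 0.00. The family median was 0.10 in AU rats and 0.12 in AI rats.

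Individual ribosomal genes overlapped between tasks. Rps28, a small-subunit protein, had 11.52, 11.73 and 12.18 in S rats, against 10.97, 11.54 and 11.85 in NS rats. Of the S rats 15 of 16 were above the NS median, and the difference was 0.22 (SE 0.06, unadjusted p = 0.00221). Rpl37a, a zinc-binding protein of the large subunit, had 11.76, 11.98 and 12.28 in S rats, against 11.42, 11.81 and 12.09 in NS rats, a difference of 0.16. Rps9, near the messenger RNA entry channel, differed by 0.17. Ribosomal protein genes have many processed pseudogenes with near-identical sequence, so the probesets of these genes may read more than one locus.

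Promoters of ribosomal protein genes are known for starting transcription at a C that leads a run of pyrimidines, a feature used to control their translation. RefSeq start sites (GRCr8) were searched on the gene's own strand for a C at the start followed by 4 bases that are each C or T. Of the 35 ribosomal genes with a promoter in the table, 11 (31.4%) had it, against 2.65% of the 7597 measured genes with a promoter and 2.63% of all 27457 promoters. The 11 genes with it had a median difference of 0.11, as did those without. The 4 stretches below show it in members with an unadjusted p under 0.05, from 30 bases before the start, with the run that begins at the start in capitals: Rpl37a (chr9:81748061-81748105, plus strand), Rpl35 (chr3:43165907-43165951, minus strand), Rpl22 (chr5:168117931-168117975, plus strand) and Rps3a (chr2:173827028-173827072, minus strand).
Rpl37a: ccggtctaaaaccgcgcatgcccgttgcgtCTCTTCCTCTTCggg
Rpl35: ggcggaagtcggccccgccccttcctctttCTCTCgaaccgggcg
Rpl22: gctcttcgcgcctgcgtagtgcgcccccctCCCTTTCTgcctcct
Rps3a: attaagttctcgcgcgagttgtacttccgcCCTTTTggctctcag
The differences of the genes shown were 0.16 for Rpl37a, 0.16 for Rpl35, 0.14 for Rpl22 and 0.11 for Rps3a. A match describes the letters at an annotated start and is not a measurement of use.

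Oxidative phosphorylation, in which the respiratory chain pumps protons that drive ATP synthase, showed a shift of the same size. Of 77 measured genes (113 listed), 75 had positive differences, with a median of 0.11 (1.08-fold) and a range of -0.06 to 0.22. At an unadjusted p under 0.05, 26 (33.8%) were higher and 0 lower, against 7.24% and 5.84% of all genes, of which 51.6% were positive. In this family the positive differences covered every complex: 38 of 39 genes of complex I and its assembly (16 higher, median 0.12), 4 of 4 of complex II (0 higher, median 0.07), 6 of 7 of complex III other than cytochrome c1 (1 higher, median 0.11), 10 of 10 of complex IV (4 higher, median 0.11) and 16 of 16 of ATP synthase (5 higher, median 0.11). The cytochrome c1 gene, also of complex III, differed by 0.01. The 2 negative members were Ndufaf7, an assembly factor, at -0.04 and Uqcrc2, a core protein of complex III, at -0.06. Among complex I subunits, Ndufv2 had 11.20, 11.51 and 11.94 in S rats, against 10.99, 11.31 and 11.60 in NS rats, with 15 of 16 S rats above the NS median and a difference of 0.20 (SE 0.06, unadjusted p = 0.00121). Ndufa6 had 9.96, 10.31 and 10.59 in S rats, against 9.78, 10.07 and 10.51 in NS rats, a difference of 0.22. Ndufs6, also of complex I, differed by 0.17. The family median was 0.07 in AU and 0.14 in AI rats.

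The mitochondrial ribosome, which translates the few proteins encoded in mitochondrial DNA, had 73 of 75 listed genes measured. Of these, 66 were positive, with a median of 0.09 (1.06-fold), and 15 (20.5%) were higher and 0 lower at an unadjusted p under 0.05. Of all genes 51.6% were positive, 7.24% higher and 5.84% lower. Mrps25 had 9.604, 10.05 and 10.30 in S rats, against 9.43, 9.75 and 10.18 in NS rats. Of the S rats 15 of 16 were above the NS median of Mrps25, and its difference was 0.23 (SE 0.06, unadjusted p = 0.000978). Mrpl12, which also binds mitochondrial RNA polymerase, and Mrpl27 each differed by 0.19. The family median was 0.05 in AU and 0.13 in AI rats.

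The proteasome, which degrades ubiquitin-tagged proteins, had 42 of 48 listed genes measured, 35 of them positive, with a median of 0.07 (1.05-fold). At an unadjusted p under 0.05, 8 (19.0%) were higher and 0 lower, against 7.24% and 5.84% of all genes, of which 51.6% were positive. Psma7, an alpha-ring subunit of the core, had 10.99, 11.26 and 11.43 in S rats, against 10.84, 11.11 and 11.28 in NS rats, a difference of 0.15 (SE 0.04). Psme1, of the interferon-inducible cap, differed by 0.19, and the ubiquitin receptor Psmd4 by 0.18. The family median was 0.05 in AU and 0.09 in AI rats.

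Promoters of these 3 families often hold the core letters bound by ETS factors such as NRF2 (GABP), CCGGAAG, searched on both strands over the 300 bases around the start. It occurred in 21 of 70 oxidative phosphorylation genes (30%), 20 of 59 mitochondrial ribosomal genes (33.9%) and 13 of 38 proteasome genes (34.2%), against 18.8% of measured genes and 9.22% of all promoters. In members with and without it the median difference was 0.13 and 0.10 for oxidative phosphorylation, 0.10 and 0.07 for the mitochondrial ribosome, and 0.03 and 0.10 for the proteasome. The 3 stretches show it in 1 member of each family, with the core in capitals: Ndufa6 (chr7:115750474-115750533, minus strand), Mrpl27 (chr10:80092258-80092317, plus strand) and Psmd4 (chr2:185297316-185297375, minus strand).
Ndufa6: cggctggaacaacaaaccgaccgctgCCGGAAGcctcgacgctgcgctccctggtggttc
Mrpl27: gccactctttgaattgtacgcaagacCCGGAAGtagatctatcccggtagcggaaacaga
Psmd4: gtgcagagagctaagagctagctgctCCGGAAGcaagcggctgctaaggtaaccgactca
The proteasome was the only one of the 3 in which members with the core had the smaller median.

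**Figure D3:**
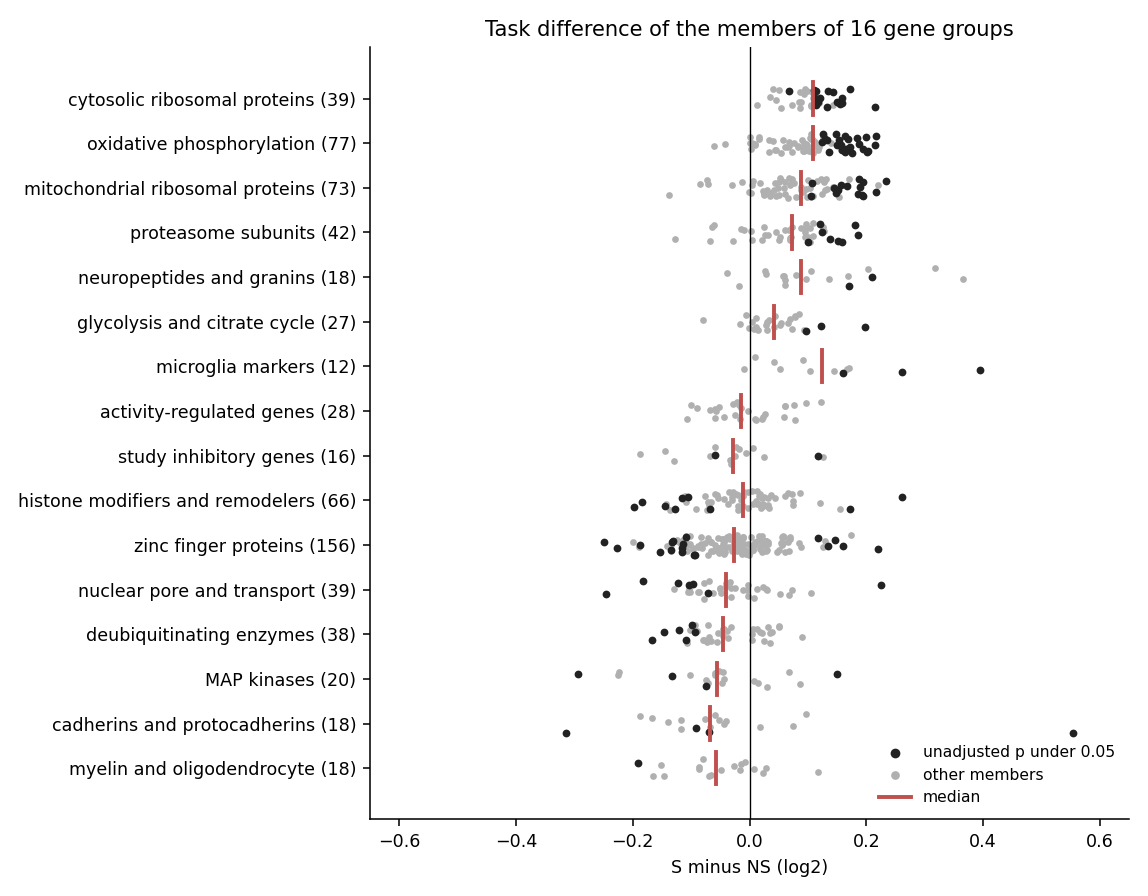
S minus NS on the log2 scale for the members (points) of 16 gene groups, with the number of genes in brackets, the group median (red bar) and members at an unadjusted p under 0.05 in black. Cytosolic ribosomal genes lie between 0.01 and 0.22, the medians of the top 4 groups are 0.07 to 0.11, and the 5 groups from nuclear pore to myelin have medians of -0.07 to -0.04.

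On single arrays, the family means of the 2 tasks overlapped over most of their range. The mean of the 39 ribosomal genes had 12.55, 12.77 and 12.96 (lowest, median and highest) in S rats, against 12.38, 12.63 and 12.98 in NS rats, so that the highest array was an NS array. It averaged 12.77 ± 0.12 (SD, n = 16) in S rats and 12.67 ± 0.17 (SD, n = 15) in NS rats, and 14 of 16 S rats were above the NS median. Oxidative phosphorylation averaged 11.52 ± 0.13 in S and 11.42 ± 0.16 in NS rats, with 13 of 16 S rats above the NS median. The mitochondrial ribosome averaged 9.07 ± 0.15 in S and 8.98 ± 0.16 in NS rats, and the proteasome 10.35 ± 0.09 in S and 10.29 ± 0.12 in NS rats, with 12 of 16 S rats above the NS median in each. The difference between the means was smaller than the SD between rats of either task in all 4 families.

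**Figure D4:**
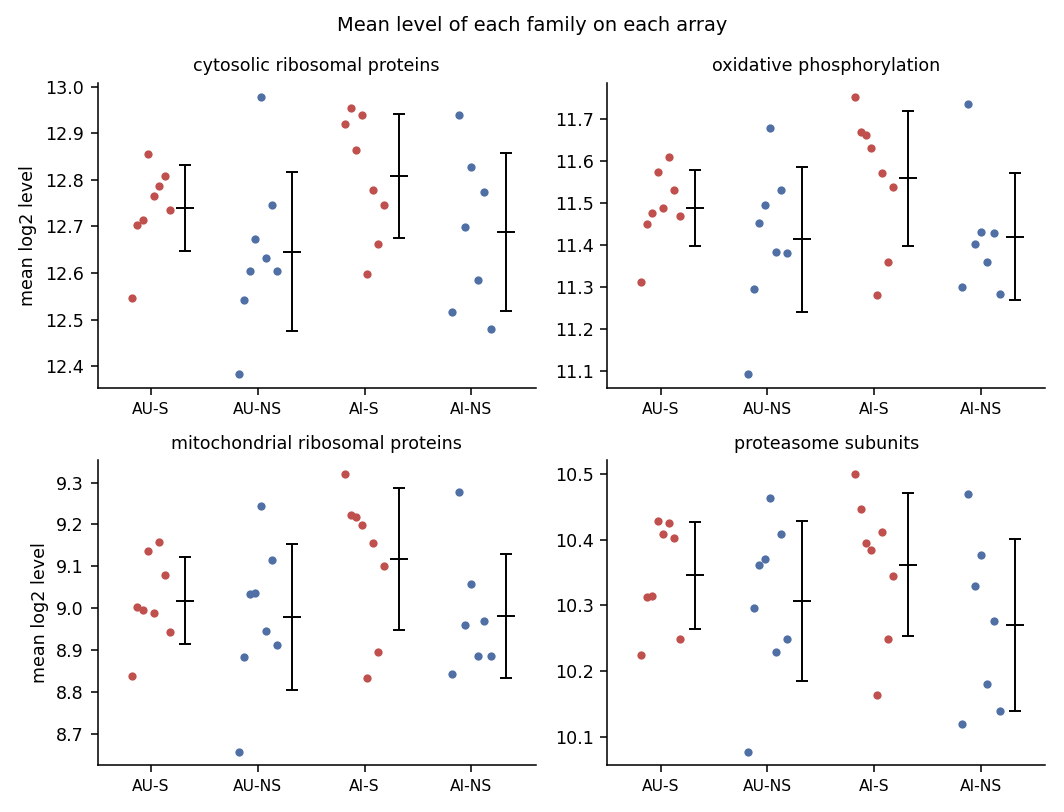
Mean log2 level of each family on every array (points), grouped as AU-S, AU-NS, AI-S and AI-NS, with group means and SDs. For oxidative phosphorylation 1 AI-NS array stands at 11.73, above the other 6 AI-NS arrays at 11.29 to 11.43.

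The counts of members, though not the direction, depended on single arrays. Ribosomal members higher at an unadjusted p under 0.05 numbered 10 without AI-NS replicate 1 or AU-NS replicate 1, 26 without AI-NS replicate 3 and 27 without AU-NS replicate 5. For oxidative phosphorylation there were 46 without AI-NS replicate 3 and 41 without AU-NS replicate 5. For the mitochondrial ribosome there were 24 without AI-NS replicate 3 and 23 without AU-NS replicate 5 or AI-S replicate 5. For the proteasome there were 4 without AU-NS replicate 1 and 14 without AI-NS replicate 3 or AI-S replicate 5. The count over all 9037 genes moved too, from 484 higher without AU-NS replicate 1 to 967 higher without AI-S replicate 5. The medians stayed within 0.09 to 0.13 for the cytosolic ribosome and 0.08 to 0.14 for oxidative phosphorylation, and within 0.07 to 0.11 for the mitochondrial ribosome and 0.06 to 0.09 for the proteasome. Within AU rats alone 7, 13, 5 and 5 members of these families in that order were higher, and 0, 1, 5 and 0 were lower. Of all 9037 genes, 366 (4.05%) were higher and 363 lower in AU rats. The mitochondrial ribosome thus had equal counts at an unadjusted p under 0.05, although its median over all members was 0.05 in AU rats. Within AI rats alone 0, 7, 10 and 3 members were higher and 0 were lower in each family. Of all 9037 genes, 234 (2.59%) were higher and 165 lower in AI rats. With dentate and CA1 marker levels as covariates the medians were 0.09, 0.09, 0.07 and 0.07, and with the 3′ minus 5′ control as a covariate they were 0.11, 0.12, 0.09 and 0.08.

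The families shared short genes. The median genomic span, from the first to the last base of the RefSeq gene, was 3.53 kb for cytosolic ribosomal genes, 7.17 kb for oxidative phosphorylation, 6.5 kb for the mitochondrial ribosome and 10.8 kb for the proteasome, against 26.6 kb over all measured genes. With the measured genes ordered by span and cut into 10 equal bins, 38 of 39, 61 of 77, 57 of 73 and 25 of 42 members of these families were in the 3 bins of shortest genes. They did not share a level of signal: 31 of 39 cytosolic ribosomal genes but 0 of 73 mitochondrial ribosomal genes were in the brightest of 10 bins ordered by signal. Signal depends on the probes as well as on the transcript.

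Across all measured genes the task difference followed genomic span, which is given as a description with no test because genes are not replicates. Of the 9037 genes, 9027 had a span. In the bin of shortest genes (up to 4899 bases) the median S minus NS was 0.06, 683 of 903 genes were positive, and 169 (18.7%) were higher and 8 (0.886%) lower at an unadjusted p under 0.05. In the bin of longest genes (from 144700 bases) the median was -0.04, 295 of 903 were positive, and 18 (1.99%) were higher and 94 (10.4%) lower. The medians from the shortest to the longest bin were 0.06, 0.05, 0.03, 0.01, 0.00, 0.00, -0.01, -0.03, -0.03 and -0.04. Without the members of the 4 families the shortest bin had 818 genes and a median of 0.05, with 141 (17.2%) higher and 8 lower. Bins of signal level showed no such order, with medians of -0.01 to 0.01.

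The span pattern held in both phenotypes and overlapped between rats. The shortest bin had a median of 0.04 in AU and 0.08 in AI rats, and the longest -0.03 in AU and -0.04 in AI rats. On single arrays, the mean log2 level of the shortest bin minus that of the longest had a lowest, median and highest value of -0.50, -0.29 and -0.14 in S rats, against -0.69, -0.41 and -0.19 in NS rats. It averaged -0.30 ± 0.10 (SD, n = 16) in S and -0.40 ± 0.13 (SD, n = 15) in NS rats, and 14 of 16 S rats were above the NS median. The 3′ minus 5′ control differed by 0.067 in AU rats and -0.003 in AI rats, and by 0.06 over both without AI-NS replicate 8 (permutation p = 0.078). With it as a covariate the shortest bin had 0.06 and the longest -0.03. With dentate and CA1 marker levels as covariates they had 0.05 and -0.04. Other technical properties that follow gene length, such as probe composition, were not tested.

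**Figure D5:**
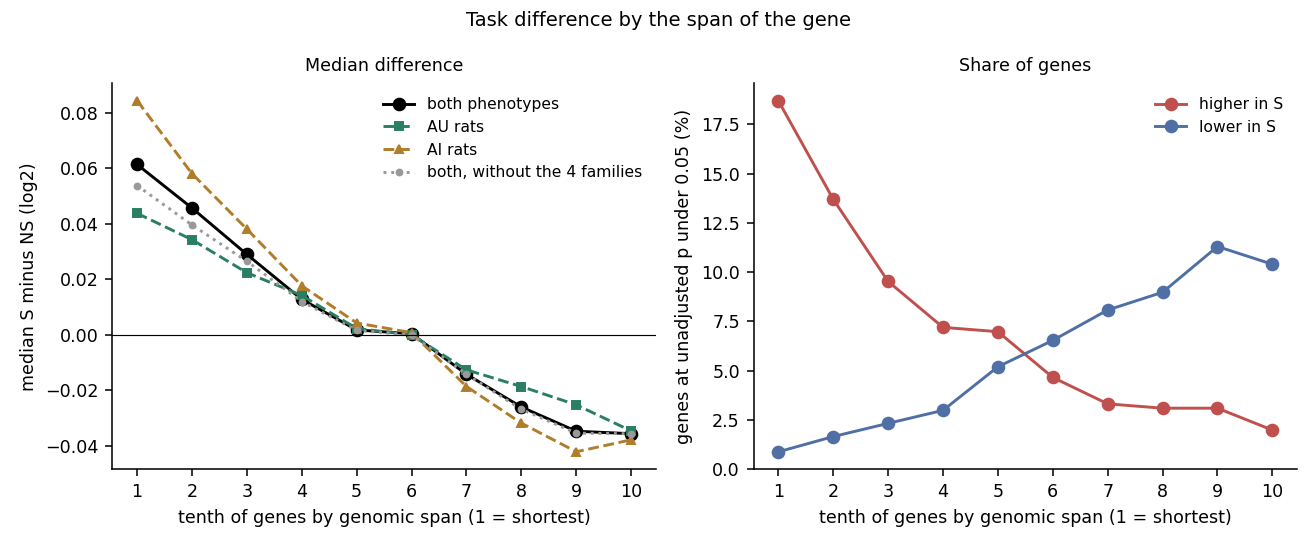
Left, median S minus NS on the log2 scale in 10 bins of measured genes ordered by genomic span (1 is the shortest), for both phenotypes, AU rats, AI rats, and both phenotypes without the 4 families. Right, the share of genes in each bin at an unadjusted p under 0.05, higher or lower in S rats. The median runs from 0.06 in bin 1 to -0.04 in bin 10, and the share higher from 18.7% to 1.99%.

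Several families with negative medians had a longer median span than all measured genes. Long genes did not go with a negative median in every list: AMPA and kainate receptors (10 genes, 197 kb) had a median of 0.03, membrane scaffolds of synapses (25 genes, 109 kb) 0.03 and synaptic vesicle proteins (15 genes, 55.2 kb) 0.05. Deubiquitinating enzymes, which take ubiquitin off proteins, had 38 genes, a median span of 53.2 kb and a median difference of -0.05. Of these enzymes 0 were higher and 6 (15.8%) lower, where 7.24% of all genes were higher and 5.84% lower. Among the enzymes, Usp42 had 8.98, 9.19 and 9.39 in S rats, against 9.08, 9.27 and 9.56 in NS rats, a difference of -0.12. Usp28, which stabilises proteins after DNA damage, differed by -0.15, and Usp8 of endosomes by -0.09. Nuclear pore and transport genes (39 genes, 52.2 kb) had a median of -0.04, with 1 higher (2.56%) and 6 lower (15.4%). Nup54 of the central channel had 6.30, 6.72 and 7.02 in S rats, against 6.60, 6.86 and 7.44 in NS rats, with 1 of 16 S rats above the NS median and a difference of -0.18. The exportins Xpo4 and Xpo6 differed by -0.25 and -0.07, while Nup93 of the inner ring differed by 0.23.

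MAP kinases and cadherins, both small lists, also had negative medians. Over all genes 7.24% were higher and 5.84% lower. MAP kinases (20 genes, 51.1 kb) had a median of -0.06, with 1 higher and 3 lower. Map3k3 had 7.55, 8.15 and 8.48 in S rats, against 8.05, 8.38 and 9.06 in NS rats. Only 3 of 16 S rats were above the NS median of Map3k3, and its difference was -0.29 (SE 0.08, unadjusted p = 0.000953, adjusted p = 0.308). Cadherins and protocadherins (18 genes, 106 kb) had a median of -0.07, with 1 higher (5.56%) and 3 lower (16.7%), the higher one being Pcdh19. Cdh11 differed by -0.09, and Cdh12 by -0.31, with -0.67 in AU and 0.07 in AI rats. Zinc finger proteins (156 genes, 19.7 kb) had a median of -0.03, with 5 higher (3.21%) and 13 lower (8.33%). Zfp612 and Zfp329 each differed by -0.13 and Zfp580 by 0.22. Myelin and oligodendrocyte genes (18 genes, 22.9 kb) had a median of -0.06, with 0 higher and 1 lower (5.56%), Opalin at -0.19. Their median span, like that of zinc finger genes, was below the 26.6 kb of all measured genes.

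Genes induced by neuronal activity did not separate the tasks, although they too are short. Of 28 measured members (median span 5.72 kb, 21 in the 3 bins of shortest genes), 0 were higher and 0 lower at an unadjusted p under 0.05, 12 were positive, and the median was -0.02. At that threshold 7.24% of all genes were higher and 5.84% lower, while 51.6% had positive differences. Arc, which reaches synapses after activity, had 9.89, 10.33 and 11.15 in S rats, against 9.90, 10.38 and 10.85 in NS rats. The ranges largely overlapped, with the highest value in S rats, and the difference was 0.06 (SE 0.11, 95% interval -0.17 to 0.29). Fos, a subunit of the AP-1 factor, had 8.56, 8.997 and 9.72 in S rats, against 8.52, 9.004 and 9.76 in NS rats, a difference of 0.01 (SE 0.11). Egr1, a zinc finger activity factor, had 11.45, 11.74 and 11.92 in S rats, against 11.38, 11.68 and 12.14 in NS rats, a difference of -0.02 (SE 0.07) whose sign depended on the setting. Bdnf, a neurotrophin, differed by 0.10 (SE 0.05, unadjusted p = 0.0745). The interval of Arc includes a rise of 1.2-fold, so a rise of that size may have been missed, but it does not include a fall of 1.2-fold.

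Genes tied to learning or to inhibition had medians close to 0. A list of probesets linked to spatial learning in young rats was assembled partly from the contrast of AU and AI rats on these same arrays and is not independent of them. Its 92 probesets had a median of -0.02, with 1 higher (1.09%), 5 lower (5.43%), 31 positive and 61 negative. Of all probesets 5.73% were higher, 6.46% lower and 46.5% positive. The listed probeset of Pafah1b2, a platelet-activating factor hydrolase subunit, differed by 0.11 (-0.04 at the brightest of its 3 probesets), the mitochondrial fission gene Dnm1l by -0.11 and the initiation factor Eif4g2 by -0.07. Inhibitory transmission genes (16 genes, from a list the study drew up by function among genes above its intensity limit on these arrays) had a median of -0.03, with the GABA-B receptor gene Gabbr1 at 0.12 and the glycine receptor gene Glrb at -0.06. The BDNF receptor Ntrk2 differed by -0.07 and the SNARE protein Snap25 by -0.01, neither past an unadjusted p of 0.05.

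Lists of genes that follow stress hormones and time of day had small medians. Of 18 glucocorticoid-responsive genes 1 was higher (5.56%) and 2 were lower (11.1%), with a median of -0.01. Over all genes 7.24% were higher and 5.84% lower. Ddit4, an inhibitor of mTORC1, had 10.87, 11.11 and 11.44 in S rats, against 10.50, 11.01 and 11.14 in NS rats, a difference of 0.18 (SE 0.07). Sgk1, a kinase induced by glucocorticoids, went the other way with 13.08, 13.80 and 14.10 in S rats, against 13.64, 13.89 and 14.37 in NS rats, a difference of -0.21 (SE 0.08). The receptor gene Nr3c1 differed by -0.18. Of 19 circadian clock genes 1 (5.26%) was higher, the output factor Tef at 0.27 (SE 0.11), and 0 were lower, with a median of 0.02.

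Glycolysis and citrate cycle genes (27 genes) had a median of 0.04 (0.03 with marker covariates), with 23 positive, 3 higher (11.1%) and 0 lower. The shares over all genes were 51.6% positive, 7.24% higher and 5.84% lower. The phosphofructokinase genes Pfkl and Pfkm differed by 0.20 and 0.10, and Suclg1, a succinyl-CoA ligase subunit, by 0.12. Histone modifiers and remodelers (66 genes) had 2 higher (3.03%) and 7 lower (10.6%), with a median of -0.01.

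Neuropeptide genes had more positive than negative differences, and the direction of amyloid precursor genes depended on the probesets. Neuropeptides and granins (18 genes) had a median of 0.09, with 16 positive, 2 higher (11.1%) and 0 lower. The shares over all genes were 51.6% positive, 7.24% higher and 5.84% lower. Cck, the cholecystokinin gene of interneurons and some pyramidal cells, had 11.61, 11.95 and 12.28 in S rats, against 11.25, 11.86 and 12.02 in NS rats, a difference of 0.21 (SE 0.08). Pcsk1n, an inhibitor of prohormone convertase, differed by 0.17, and the granin Chga by 0.14 (unadjusted p = 0.066). In the list of App and secretases (16 genes, median 0.03 with 10 positive), 5 were higher (31.2%) and 1 lower (6.25%). Over all 31 probesets of these genes, however, the median was -0.04 with 13 positive. The App relatives Aplp1 and Aplp2 differed by 0.17 and 0.14 and the gamma-secretase subunit Psenen by 0.19, whereas App itself differed by -0.05 and Adam10 by -0.16, neither past the unadjusted threshold.

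Microglia markers (12 genes) had a median of 0.12, with 11 positive, 3 higher and 0 lower. By comparison, 51.6% of all genes were positive, 7.24% higher and 5.84% lower. Single arrays moved the microglia median, to 0.05 without AI-S replicate 2 and 0.19 without AI-NS replicate 7. It was 0.10 over every probeset and 0.19 with marker covariates. Aif1, which encodes IBA1, had 7.72, 8.11 and 9.13 in S rats, against 7.02, 7.64 and 8.75 in NS rats. All 16 S rats were above the NS median, and the difference was 0.39 (SE 0.14, unadjusted p = 0.00865, adjusted p = 0.308). Fcer1g, a signalling chain of Fc receptors, differed by 0.26 and the lysosomal protease Ctss by 0.16. The mean of the 12 genes ranged over 8.40 to 9.89 in S rats and 7.97 to 9.59 in NS rats. Chemokines and interleukin receptors (19 genes, median 0.04) had 5 higher (26.3%) and 0 lower. Over their 25 probesets, however, the median was -0.003, with 12 positive, 5 higher and 1 lower. Those higher included the microglial survival factor Il34 at 0.22 and Cxcl12 at 0.24.

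Across all 68 lists 0 members passed the adjusted threshold. Of the 55 lists with at least 10 members, 7 had a median above 0.05, 3 a median below -0.05 and 45 lay between. Among the lists between those limits, exocytosis and active zone genes (28 genes) had a median of 0.00, potassium channels (36 genes) -0.01 and solute carriers (152 genes) 0.00. MAP kinases were among the 3 below. Lists with fewer members were not counted, such as NMDA receptors (5 genes, 0.09) and metabotropic glutamate receptors (4 genes, -0.09).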

How the data were processed

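CA3 expression was measured on Affymetrix Rat 230 2.0 arrays, 1 rat per array. The deposited log2 values had been made by the authors with GCRMA (background correction, quantile normalization and probeset summarization), and its version is not given in the sources used here. The table held 16204 probesets with values of 1.312 to 16.12 and array medians of 8.97 to 9.14. It holds no value of depth, and precision is limited by the number of arrays. GEO's platform annotation gave 1 symbol for 12242 probesets, several for 293 and none for 3669, and the brightest of a gene's probesets stood for it in lists (9037 genes). The fit was lmFit and eBayes in limma 3.58.1 (R 4.3.3) with phenotype and task, Benjamini-Hochberg adjusted over all probesets. A limit of 4 on the mean, from the study's methods, removed 0 probesets. Values called higher or lower without an adjusted p passed an unadjusted p of 0.05. Permutation tests drew 100000 shuffles of task within phenotype. The fit was checked on simulated data. Named genes were the 10 with the smallest p in each direction, the 5 with the largest difference in each direction at an unadjusted p under 0.05, up to 3 of smallest p in each list, genes the study's text centres on with its inhibitory list, and defining cell type markers. Ndufaf7, Uqcrc2, the cytochrome c1 gene, Rpl35, Rpl22, Rps3a and Nup93 fall outside that rule and were chosen after their values were seen. Members and lists were chosen with earlier results of these data known. Alternatives were other limits and priors, scalings, array weights, covariates, single phenotypes, a replicate block, SAM and leaving out each array. Promoters and gene spans were from RefSeq (GRCr8). Rats are separate animals, and batches of animals or arrays were not given in the labels.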

Additional observations from a re-analysis of the deposited data

Results flagged for a closer look

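In 156 groups of 7 or 8 arrays, 18 had 1 array set apart from the others of its group by Dixon's criterion, which chance meets in about 1 of 20 groups. They cover 9 measures and the 30 genes named by p or size. Of 30 genes, 0 had an interaction of task and phenotype at an adjusted p under 0.05.

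Among the array measures, AI-NS replicate 3 had an oxidative phosphorylation mean of 11.734, where the other AI-NS arrays had 11.285 to 11.43. Microglia markers reached 9.167 in AU-NS replicate 5, against 8.446 to 8.765 in the other AU-NS arrays. CA1 markers reached 10.835 in AI-NS replicate 4, against 9.639 to 9.941. The 3′ minus 5′ control was 1.718 in AU-S replicate 5, against 1.405 to 1.515, and 1.924 in AI-NS replicate 8, against 1.47 to 1.638.

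Among the genes higher in S rats, Emc4 was 10.707 in AU-NS replicate 1, where the others had 11.101 to 11.439. Ppp2r5d was 7.326 in AI-NS replicate 4, against 7.737 to 7.886. Ggct was 6.72 in AI-NS replicate 7, against 7.073 to 7.222, and Dmpk was 9.291 in the same array, against 8.836 to 9.029. Wbp4 was 7.573 in AI-NS replicate 8, against 8.093 to 8.265. Zbtb20 was 8.152 in AI-NS replicate 1, against 10.106 to 11.242.

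Among the genes lower in S rats, Simc1 was 8.481 in AI-S replicate 5, against 8.044 to 8.158, and 7.995 in AI-NS replicate 7, against 8.406 to 8.565. Dnaaf9 was 12.518 in AI-S replicate 5, against 12.281 to 12.382. Mbd6 was 8.116 in AI-NS replicate 3, against 7.818 to 7.902, and Pde4d was 7.441 in AI-NS replicate 4, against 6.66 to 6.816. Vof16 was 7.082 in AU-S replicate 7, against 4.482 to 5.38, and 7.595 in AI-S replicate 4, against 4.487 to 5.4.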

How the results depend on the processing

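The limma fits gave 0 calls at an adjusted p of 0.05 for task and for the interaction in every alternative run, and SAM gave 3. With single arrays left out the smallest adjusted p was 0.105 to 0.468, and the count at an unadjusted p under 0.05 was 1517 (without AU-NS replicate 1) to 2659 (without AI-S replicate 5). In AI rats alone that count was 662. Cytosolic ribosomal members higher numbered 26 with arrays centred on their medians, 7 in AU rats, 0 in AI rats and 10 to 27 with single arrays left out. Oxidative phosphorylation had 13 in AU, 7 in AI and 23 to 46. The mitochondrial ribosome had 5 in AU (and 5 lower) and 11 to 24. The proteasome had 5 with marker covariates, 5 in AU, 3 in AI and 4 to 14. Over all 9037 genes the number higher was 366 in AU rats, 234 in AI rats and 484 to 967 with single arrays left out. The replicate block gave 0 calls and 1724 probesets at an unadjusted p under 0.05. The labels' numbers did not pair the rats: the correlation of same-numbered arrays averaged -0.083 over 45 pairs (-0.466 to 0.311), and 0 of 31 arrays were closest to their own number. Of 75 named genes, 68 kept their sign in every setting. In AI rats alone Cdh12 had 0.0665, Arc -0.0469 and Fos -0.0014. In AU rats alone Egr1 had 0.0815, Pdyn -0.0052, Calb1 -0.0673 and Prox1 -0.24. Egr1 had 0.0007 with array weights and 0.0033 with marker covariates, and Prox1 -0.055 with marker covariates. With single arrays left out Egr1 ran over -0.0438 to 0.0138 and Fos over -0.0311 to 0.0649. The causes were not tested. Leaving out single arrays gave permutation p = 0.0621 to 0.317 for the profile distance and 0.078 to 0.698 for the control difference.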
